A study of Homo sapiens with 24 samples.

Results

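The heat shock protein families of the cytosol, nucleus and mitochondria were followed in 2 leukaemia cell lines treated with ibrutinib, asparaginase or both. The members were all protein-coding genes whose symbol begins with HSPA, HSPB, HSPD, HSPE, HSPH, DNAJA, DNAJB or DNAJC and a digit, or with HSP90A. The endoplasmic reticulum (ER) chaperones HSPA5, DNAJB9, DNAJB11 and DNAJC3 were left out. This gave 71 of the 58735 genes measured: 11 in the HSP70 family, 3 in the HSP110 family, 2 HSP90 genes, 9 mitochondrial genes, 9 small heat shock genes, 3 DNAJA, 10 DNAJB and 24 DNAJC genes. The 71 carry 70 names, because HSPA14 stands in the annotation as 2 overlapping genes on chromosome 10 (ENSG00000187522, called HSPA14 here, and ENSG00000284024). The choice by name also kept several members known to reside at the ER, among them HSPA13, DNAJB12, DNAJB14, DNAJC1, DNAJC10 and DNAJC16. The rule itself uses no measured value, but it was chosen with earlier results of these data known.

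Both lines, Nalm6 and Sem, are long-established cultures of acute lymphoblastic leukaemia of B cell precursors, and Sem has a rearranged KMT2A gene. RNA was sequenced from untreated cells and from cells exposed for 24 h to 10 µM ibrutinib, a kinase inhibitor of BTK, to asparaginase, an enzyme drug that breaks down extracellular asparagine, or to both drugs together, with 3 libraries in each of the 8 groups. The sample records give the asparaginase dose as 1 IU/ml and the treatment description as 0.5 IU/ml, which the files do not settle, and the harvest time of the untreated cells is not stated. Nothing says that the 3 libraries of a group came from separate cultures, so p-values cover the scatter among these libraries only, and that scatter may be technical.

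Heat shock proteins fold new proteins and hold unfolding ones. HSP70 proteins bind short exposed stretches of a client, J-domain proteins of the DNAJA, DNAJB and DNAJC classes deliver the client and start the ATP cycle, HSP110 proteins release the nucleotide, and HSP90 completes the folding of kinases, steroid receptors and other clients. In mitochondria HSPA9 pulls in and folds imported proteins, and HSPD1 with its lid HSPE1 forms a folding cage. Many of these genes are switched on by the heat shock factor HSF1, which binds repeats of the unit GAA and its inverse TTC, spaced by 2 bases.

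To show which members carry such repeats near their start sites, the 250 bases upstream of each RefSeq start site (GRCh38.p14) were searched on both strands, with overlapping matches counted. A window was at hand for 61 of the 70 member names. Matches to the 3-unit forms GAANNTTCNNGAA or TTCNNGAANNTTC were found for 6 of these 61 names (9.84%), against 0.557% of all 27305 genes with a window. The 6 were HSPA6, HSPA8, HSP90AA1, HSP90AB1, HSPD1 and DNAJB6. A match to the 2-unit forms GAANNTTC or TTCNNGAA, which every 3-unit match also contains, was found for 20 names (32.8%), against 14% of all genes. The stretches of the 5 expressed members with a 3-unit match, and of 3 members with a 2-unit match only, are printed 5′ to 3′ along the gene, with the matched letters in capitals. They are shown as examples of both forms among members described below.
HSPA8, first match, chr11:123062348-123062372, minus strand: gagcttGAAAGTTCCAGAAcgctgc
HSPA8, second match, chr11:123062173-123062197, minus strand: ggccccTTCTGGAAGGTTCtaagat
HSP90AA1, chr14:102087114-102087138, minus strand: gggttcTTCCGGAAGGTTCgggagg
HSP90AB1, first match, chr6:44247772-44247796, plus strand: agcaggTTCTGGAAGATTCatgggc
HSP90AB1, second match, chr6:44247825-44247849, plus strand: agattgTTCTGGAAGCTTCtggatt
HSPD1, chr2:197500062-197500090, minus strand: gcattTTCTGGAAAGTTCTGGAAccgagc
DNAJB6, chr7:157336867-157336891, plus strand: agccgaGAACCTTCGCGAAggtggg
HSPB1, chr7:76302485-76302504, plus strand: acgagaGAAGGTTCcagatg
HSPA1A, chr6:31815431-31815450, plus strand: accctgGAATATTCccgacc
HSPA1B, chr6:31827627-31827646, plus strand: cccctgGAATATTCccgacc
The capitals begin 230 and 55 bases before the start site in HSPA8, 88 in HSP90AA1, 165 and 112 in HSP90AB1, 245 in HSPD1, 131 in DNAJB6, 182 in HSPB1, 106 in HSPA1A and 105 in HSPA1B. The stretches of HSPA8 and HSP90AA1 also lie in 5′ exons of other transcripts of the same gene, and that of HSPD1 lies in exons of HSPD1 and of its head-to-head neighbour HSPE1. Those of HSP90AB1 and DNAJB6 lie within the gene span but in no annotated exon, and those of HSPB1, HSPA1A and HSPA1B lie in no annotated gene. A match is a run of letters, not a measured binding site.

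Levels are FPKM, that is, fragments per kilobase of gene, as scaled by the submitters. Changes are differences of log2(FPKM + 1), which understate the change of genes near 1 FPKM. Recovered reads numbered 15 to 18.1 M per library. FPKM scaled to recovered reads would be the deposited values times a factor that moved with treatment. In Nalm6 this factor was 0.982 to 0.995 untreated and 1.072 to 1.093 with asparaginase or the combination. In Sem it was 0.919 to 0.94 untreated and 0.946 to 0.983 in the same treatments. With ibrutinib alone it was 1.028 to 1.045 in Nalm6 and 0.9505 to 0.972 in Sem. The limma-voom fits named below used the recovered reads instead. A gene was tested with limma where it reached 1 FPKM in at least 3 libraries of a fit, and was called where the Benjamini-Hochberg adjusted p over all genes tested was under 0.05. This left 47 members in Nalm6, 48 in Sem, 44 of them in both, and 51 in the fit of both lines together, while 20 were tested in none. The spread of a library from the other 2 of its group was 0.227 to 0.294 on the log2 scale and highest in the first Nalm6 combination library. All 9 B cell precursor markers listed had a median of at least 1 FPKM in Nalm6 and 7 of 9 in Sem. Of 6 T and NK cell markers, 2 reached that median in each line, with CD3D, CD3E and KLRD1 at 0 in both, and they summed to 5 to 5.81 FPKM in untreated Nalm6 and 109 to 124 in untreated Sem. Of 6 myeloid markers 1 did so in each line, of 4 plasma cell markers 2 in Nalm6 and 1 in Sem, and of 6 erythroid and stromal markers none. In Nalm6 the summed markers moved with asparaginase, from 2550 to 2690 FPKM untreated to 1920 to 1980 for B cell precursors. Plasma cell sums went from 134 to 146 to 96.9 to 108 and myeloid sums from 12.4 to 14.7 to 4.42 to 4.76. T and NK cell sums rose there from 5 to 5.81 to 7.54 to 11.7. With ibrutinib in Nalm6, T and NK cell sums went to 1.47 to 2.44 FPKM and myeloid sums to 7.36 to 9.28. Plasma cell sums went there to 118 to 124 and B cell precursor sums to 2750 to 2920. Sums also moved with ibrutinib in Sem, where those of B cell precursors rose from 564 to 598 FPKM to 732 to 762. Those of the Sem asparaginase and combination groups moved too, for B cell precursors to 525 to 548 and 768 to 794. With ibrutinib the Sem plasma cell sums fell from 91.4 to 93.7 to 68.5 to 73.7. Myeloid sums fell from 5.23 to 6.35 to 2.33 to 3.35, and T and NK cell sums from 109 to 124 to 84.1 to 91.6. The part of these marker shifts in the members' values was not tested. In bulk RNA, fewer cells of a kind and less RNA per cell cannot be told apart.

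Together the 71 members took 1.79% ± 0.084 (SD, n = 3) of all reads in untreated Nalm6 and 0.792% ± 0.0504 with asparaginase. Ibrutinib alone left 1.73% and the combination 0.859%. In Sem the share was 1.31% untreated, 1.05% with ibrutinib, 1.09% with asparaginase and 0.908% with both. The share in Nalm6 thus went below that of Sem under asparaginase, from above it in untreated cells.

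Asparaginase lowered the abundant cytosolic chaperones of Nalm6 more than any other treatment of either line did when given alone. In Nalm6, 28 of 47 tested members were called lower and 8 higher, while 28% of all 13237 genes tested were called lower and 28.2% higher. The median member change was -0.30, against 0.02 over all genes. Rescaling to TPM (transcripts scaled to one common total per library), which moved the all-gene median to 0.17, gave 23 lower and 12 higher members. After it, 2548 of all 13237 genes were lower and 5076 higher. In Sem, 23 of 48 members were lower and 5 higher, where 15% and 11.3% of all 13417 genes were, with a member median of -0.17 against -0.00. Rescaling gave 17 lower and 10 higher there, where 1148 of all 13417 genes were lower and 2695 higher. The plot of every member's change orders both lines by this comparison.

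**Figure D1:**
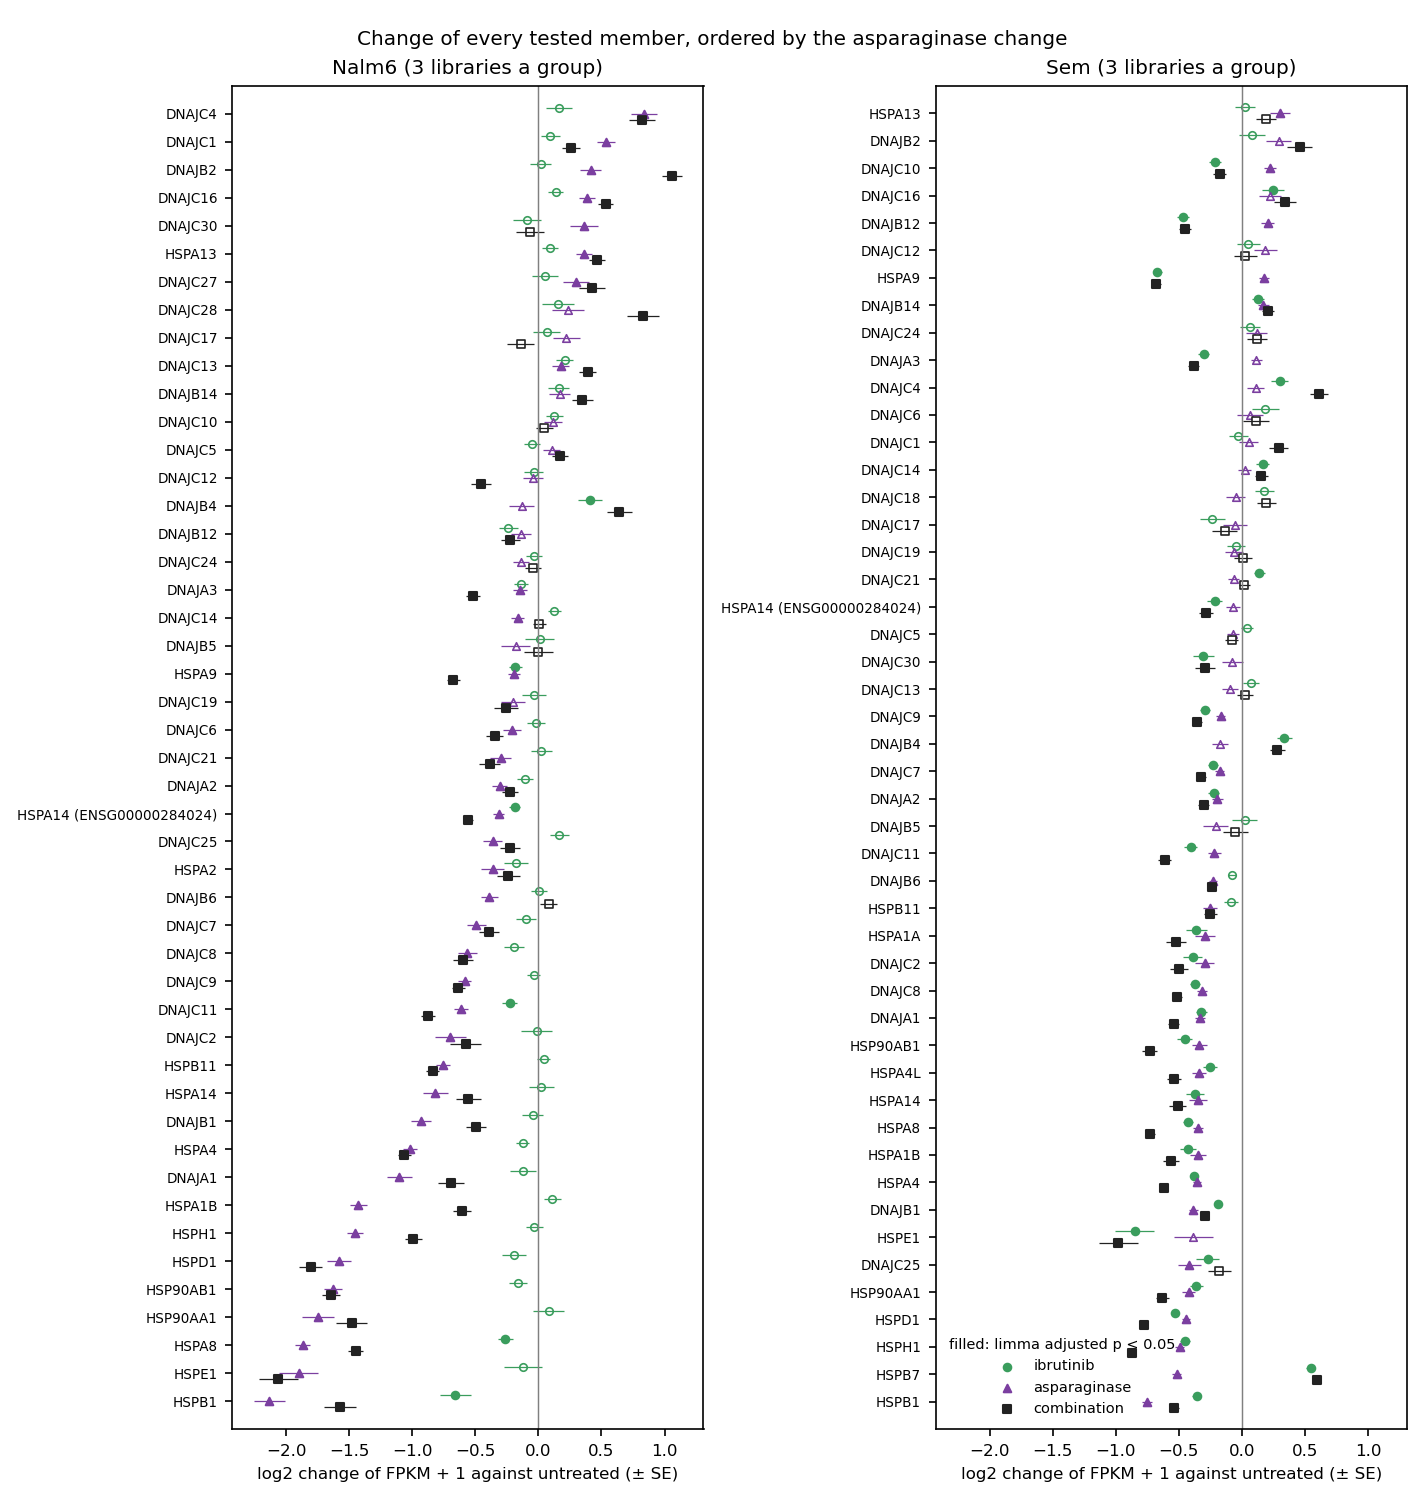
Log2 change of FPKM + 1 against untreated cells (± SE) for each tested member in Nalm6 (left, 47 members) and Sem (right, 48 members), for ibrutinib, asparaginase and the combination. Filled symbols passed limma's adjusted p of 0.05. In Nalm6 asparaginase called 28 members lower and ibrutinib 5, and in Sem ibrutinib called 27 lower and asparaginase 23.

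Among the HSP70 genes, HSPA8, the constitutive HSP70 of the cytosol, was the most abundant. Its 3 untreated Nalm6 libraries held 631, 669.8 and 679 FPKM, and the 3 asparaginase libraries 186, 173 and 181. With ibrutinib the libraries held 544, 539.7 and 566 FPKM. The 3 groups did not overlap. HSPA8 fell by 1.87 with asparaginase (SE 0.06, adjusted p = 4.1e-09), a 3.67-fold drop of the means, while its change with ibrutinib was -0.26 (adjusted p = 0.019). That last call was lost without ibrutinib library 1, without ibrutinib library 2 or without untreated library 3 (adjusted p of 0.064 to 0.077), and after rescaling to TPM (-0.19, adjusted p = 0.059). In Sem the untreated libraries held 459, 464 and 472 FPKM, those with ibrutinib 339.5, 362 and 336, and those with asparaginase 357, 357 and 380.0. Sem thus gave about the same level under either drug, with changes of -0.43 (adjusted p = 1.3e-05) and -0.35 (adjusted p = 0.0001).

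HSPA1B, one of the stress-inducible HSP70 genes, stood at 9.91, 9.51 and 9.87 FPKM in untreated Nalm6 and at 3.33, 2.82 and 2.87 with asparaginase, and fell by 1.43 (SE 0.07, adjusted p = 6.6e-08). Its ibrutinib libraries, at 10.5, 9.76 and 11.7 FPKM, overlapped the untreated ones. In Sem it held 15.1, 12.6 and 14 FPKM untreated, 9.9, 9.67 and 10.6 with ibrutinib and 10.6, 10.7 and 10.6 with asparaginase. Both treated groups lay below all untreated Sem libraries, and the changes were -0.43 and -0.35. HSPA1A and HSPA1B have near-identical sequences, so the division of reads between them is uncertain. The ribosome-associated HSPA14 fell by 0.82 in Nalm6 and 0.35 in Sem with asparaginase. Its overlapping second gene fell by 0.32 in Nalm6, and its change in Sem was -0.07 (adjusted p = 0.39); reads of the 2 genes could be shared. HSPA2, the testis-enriched HSP70, fell by 0.36 in Nalm6, from 1.17, 1.32 and 1.26 FPKM to 0.824, 0.769 and 0.653, and was too low to be tested in Sem. HSPA13, an ER-associated HSP70, went the other way: it rose by 0.36 in Nalm6 (adjusted p = 0.00058) and 0.30 in Sem (adjusted p = 0.018), the second call being lost without Sem asparaginase library 3 or untreated library 1. HSPA6, a strictly inducible HSP70, was at most 0.606 FPKM in Nalm6 and 0.313 in Sem, in any library.

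HSP90AB1, the constitutive cytosolic HSP90, was the most abundant member of all. It held 1256, 1265 and 1188 FPKM in untreated Nalm6, 1121, 1078 and 1114 with ibrutinib, and 428, 394 and 375 with asparaginase. HSP90AA1, the inducible partner, held 761, 936 and 799 FPKM untreated, 845, 867 and 918 with ibrutinib and 281, 229.7 and 230.1 with asparaginase. The asparaginase libraries lay far below the rest for both genes, and the ibrutinib libraries of HSP90AA1 overlapped the untreated ones. HSP90AB1 fell by 1.63 (SE 0.07, adjusted p = 3.3e-08) and HSP90AA1 by 1.75 (SE 0.12, adjusted p = 8.4e-07) with asparaginase. In Sem HSP90AB1 went from 644, 751 and 740.4 FPKM to 562, 562 and 560.3 with asparaginase and to 492, 554 and 511 with ibrutinib. HSP90AA1 went from 609, 644 and 616 to 476, 441 and 477 with asparaginase and to 466, 524 and 463 with ibrutinib. All treated Sem groups lay below the untreated group, with falls of 0.34 and 0.45 for HSP90AB1 and of 0.42 and 0.36 for HSP90AA1.

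**Figure D2:**
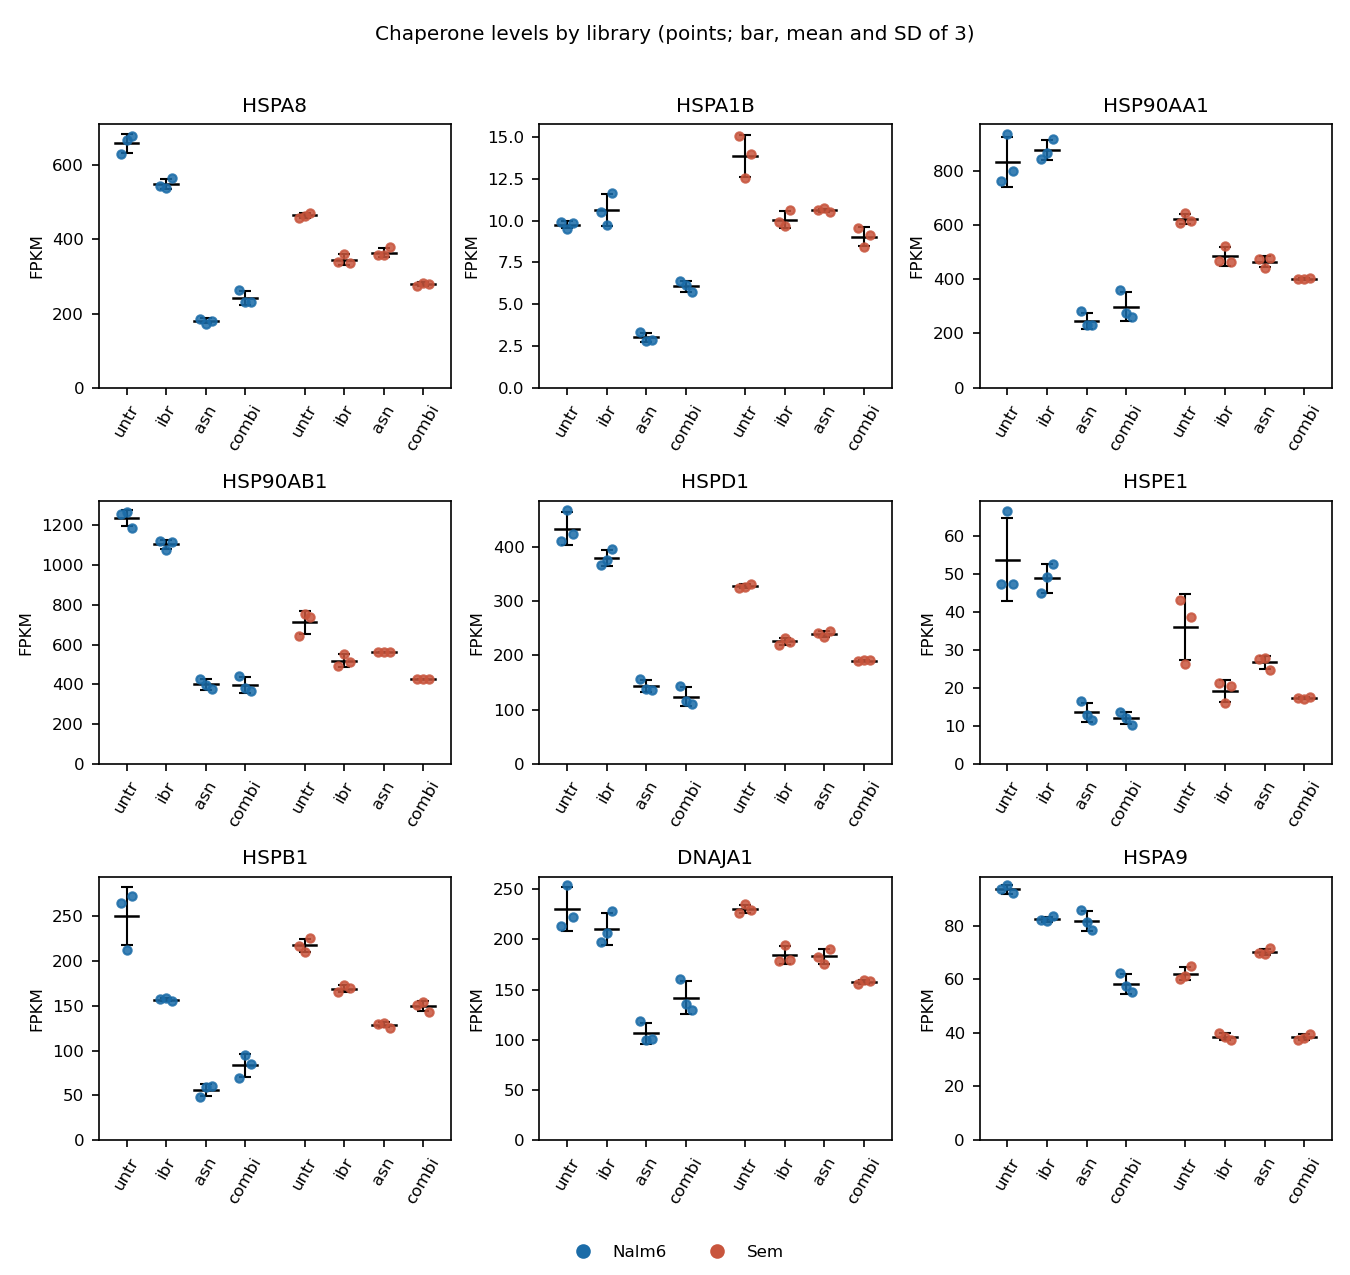
FPKM of 9 chaperone genes in every library (points; bar, mean and SD of 3), with untreated (untr), ibrutinib (ibr), asparaginase (asn) and combination (combi) groups of Nalm6 and then Sem along the horizontal axis. HSPA8 in Nalm6 goes from 631 to 679 FPKM untreated to 173 to 186 with asparaginase, while HSPA9 in Sem is highest with asparaginase, at 69.3 to 71.5.

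The HSP110 genes, nucleotide exchange factors of HSP70, fell as well. HSPH1 held 31.1, 33.6 and 31.8 FPKM in untreated Nalm6 and 11.5, 11 and 10.8 with asparaginase, a fall of 1.46 (SE 0.07, adjusted p = 3.9e-08). HSPA4 went from 66.7, 69.3 and 66 to 34, 32.6 and 31.6 FPKM, a fall of 1.02 (adjusted p = 8.3e-08). Neither pair of groups overlapped. In Sem HSPH1 fell from 63.1, 66.2 and 65.7 to 46.2, 45.2 and 46 FPKM, and HSPA4 from 54.3, 54.9 and 55.9 to 43.6, 42 and 42.7. The Sem falls of 0.50 and 0.36 were smaller than in Nalm6. Untreated Sem held more HSPH1 than untreated Nalm6 (difference 0.99, adjusted p = 2.3e-12).

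The mitochondrial members did not move as a block. The chaperonin HSPD1 fell in Nalm6 from 412, 468 and 423 FPKM to 157, 138 and 137 with asparaginase (-1.59, SE 0.09, adjusted p = 2.4e-07). Its lid HSPE1 fell from 47.4, 66.5 and 47.5 to 16.5, 12.7 and 11.7 (-1.90, SE 0.15, adjusted p = 1.9e-06). HSPD1 and HSPE1 lie head to head, and HSPE1 has processed pseudogenes that may share its reads. HSPA9, the mitochondrial HSP70, stayed close to its untreated 93.5, 95.3 and 92 FPKM, at 85.7, 81.5 and 78.2. Its change of -0.19 (adjusted p = 0.0072) turned to 0.14 under quantile normalization (adjusted p = 0.055) and was -0.04 after rescaling to TPM, so no direction is given for it.

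In Sem, HSPA9 rose with asparaginase from 60.2, 61.1 and 64.9 FPKM to 69.7, 69.3 and 71.5 (0.18, SE 0.04, adjusted p = 0.0065), and fell with ibrutinib to 39.9, 38.5 and 37.5 (-0.67, adjusted p = 5.9e-07). The untreated, ibrutinib and asparaginase groups did not overlap. HSPD1 instead fell with both, from 325, 326 and 332 FPKM to 242, 234 and 245 with asparaginase and to 219.7, 233 and 225 with ibrutinib. HSPE1 in untreated Sem was spread from 26.2 to 43 FPKM, which overlapped the asparaginase libraries at 24.7 to 27.9. Its asparaginase change of -0.39 did not pass (adjusted p = 0.088) but did so without untreated library 2, the lowest of the group (-0.59, adjusted p = 0.0027), and under limma-voom (-0.37, adjusted p = 0.018). DNAJA3, the J-domain partner of HSPA9, showed a change of 0.12 with asparaginase in Sem (adjusted p = 0.069), which passed after rescaling to TPM (0.21, adjusted p = 0.0044), under limma-voom, under quantile normalization and with the replicate block (adjusted p = 0.033). With ibrutinib it fell there by 0.30. In Nalm6 its asparaginase change of -0.15 (adjusted p = 0.044) became 0.0 after rescaling and lost its call without any 1 of 5 libraries (asparaginase 1, 2 or 3, untreated 1 or 3). DNAJC11, a J-domain protein of the mitochondrial outer membrane, fell with asparaginase by 0.62 in Nalm6 and 0.22 in Sem, and with ibrutinib by 0.41 in Sem. DNAJC30, a mitochondrial J-domain protein, rose by 0.36 in Nalm6 with asparaginase, a call lost without asparaginase library 2, asparaginase library 3 or untreated library 2 and under quantile normalization (adjusted p = 0.082). DNAJC19, of the import motor, was called only in the Nalm6 combination (-0.26, adjusted p = 0.037), a call lost without combination library 2 or 3 or untreated library 1 or 2 and after rescaling to TPM (-0.11, adjusted p = 0.38).

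Of the small heat shock genes, HSPB1, which holds unfolding proteins without ATP, had the most negative log2 change of any tested member in any treatment comparison. Its untreated Nalm6 libraries held 265, 213 and 272 FPKM, those with ibrutinib 157, 158 and 155, and those with asparaginase 48.4, 59.1 and 60.9. The 3 groups stood apart in steps. The change was -0.66 with ibrutinib (SE 0.12, adjusted p = 0.008) and -2.13 with asparaginase (SE 0.12, adjusted p = 2.1e-07), a 4.45-fold drop of the means. In Sem the libraries held 216, 211 and 225 FPKM untreated, 165, 173 and 170.0 with ibrutinib and 129, 131 and 126 with asparaginase. The same order of groups held in Sem, with falls of 0.36 and 0.75 (adjusted p of 3.8e-05 and 2.4e-07). HSPB11, which is also known as a part of the intraflagellar transport complex, fell with asparaginase by 0.76 in Nalm6 and 0.25 in Sem.

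J-domain proteins were the most mixed. DNAJA1, the main class A partner of HSPA8, fell from 213, 254 and 222 FPKM to 118, 99.7 and 101.0 in Nalm6 with asparaginase (-1.10, SE 0.1, adjusted p = 5.1e-06) and from 226, 235 and 229 to 183, 176 and 191 in Sem (-0.33, adjusted p = 0.00022). DNAJB1, the stress-inducible class B partner, fell from 58.1, 50.8 and 60 FPKM to 25.6, 30.9 and 30.7 in Nalm6 and from 42, 40.4 and 41.3 to 30.9, 31.8 and 31.3 in Sem. No asparaginase library reached an untreated one for either gene. DNAJA2 fell by 0.31 in Nalm6 and 0.20 in Sem, but the Nalm6 call was lost under quantile normalization (-0.13, adjusted p = 0.12) and the Sem call after rescaling to TPM (-0.12, adjusted p = 0.053). DNAJB6, known to suppress aggregation, fell by 0.39 and 0.23. Among DNAJC genes, DNAJC2 (ribosome-associated), DNAJC7 (a bridge between HSP70 and HSP90), DNAJC8 (linked to splicing) and DNAJC9 (a histone chaperone) fell by 0.70, 0.49, 0.56 and 0.58 in Nalm6 and by 0.30, 0.18, 0.32 and 0.17 in Sem. After rescaling to TPM the Sem calls of DNAJC2 (-0.23, adjusted p = 0.064), DNAJC7 (-0.10, adjusted p = 0.16) and DNAJC9 (-0.08, adjusted p = 0.12) were lost. DNAJC5, a synaptic vesicle J-domain protein, had asparaginase changes of 0.10 in Nalm6 and -0.07 in Sem, neither of which passed. The Nalm6 change of DNAJC5 did pass after rescaling to TPM (0.26, adjusted p = 0.007), under limma-voom (0.24) and under quantile normalization (0.31).

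The 8 members higher with asparaginase in Nalm6 were all at modest levels. DNAJC4, whose product is a little-studied membrane J-domain protein, went from 4.27, 5.35 and 5.89 FPKM to 9.43, 9.73 and 10.7, a rise of 0.84 (SE 0.10, adjusted p = 4.7e-05). DNAJB2, a J-domain protein that hands clients to the proteasome, went from 3.38, 2.51 and 3.17 to 4.41, 4.37 and 4.22 FPKM (0.41, adjusted p = 0.0012). Both rises left the groups apart. The others were DNAJC1 (0.54), DNAJC16 (0.39), DNAJC30, HSPA13, DNAJC27 (0.30) and DNAJC13 (0.18). In Sem the 5 higher members were HSPA13, DNAJC10 (0.22), DNAJB12 (0.20), HSPA9 and DNAJB14 (0.17). The DNAJB14 call was lost without asparaginase library 1 or 3 or untreated library 1 and under quantile normalization (adjusted p = 0.071), that of HSPA13 without asparaginase library 3 or untreated library 1, and the count was 3 without asparaginase library 3 or untreated library 1. HSPA13 was the 1 member called higher in both lines, which is 14.3% of the 7 such Nalm6 members and 20% of the 5 such Sem members, counted over the 44 tested in both. No such overlap was counted over all genes.

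The asparaginase change was tested between the lines in one fit of all 24 libraries. Of 51 members, 23 had a less negative or more positive change in Sem and 6 the reverse, where 17.7% and 15.7% of all 15116 genes did. The difference was 1.52 for HSPA8 (SE 0.07, adjusted p = 1.3e-11), 1.51 for HSPE1, 1.38 for HSPB1, 1.33 for HSP90AA1 and 1.29 for HSP90AB1. In the other direction stood DNAJC4 (-0.73), HSPB7 (-0.53), DNAJC1 (-0.48), DNAJC30 (-0.44) and HSPA4L (-0.34); HSPB7 and HSPA4L were all but unread in Nalm6, so theirs reflects Sem alone, and neither passed under limma-voom (adjusted p of 0.33 and 0.61). The DNAJC30 difference lost its call without Nalm6 asparaginase library 2 or 3, Nalm6 untreated library 2, Sem asparaginase library 1 or Sem untreated library 1 (adjusted p of 0.065 to 0.075). All 20 members called lower in Sem among the 44 tested in both lines were also lower in Nalm6, that is 74.1% of the 27 lower Nalm6 members and 100% of the Sem ones. Over these 44 members the changes in the 2 lines correlated with r = 0.832, a description over genes that share libraries. The matching overlap and correlation over all genes tested in both lines were not computed, so neither is read as particular to the members. The change was larger in size in Nalm6 for 38 of the 44 (86.4%), and for 76% of all 11741 genes tested in both lines.

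**Figure D3:**
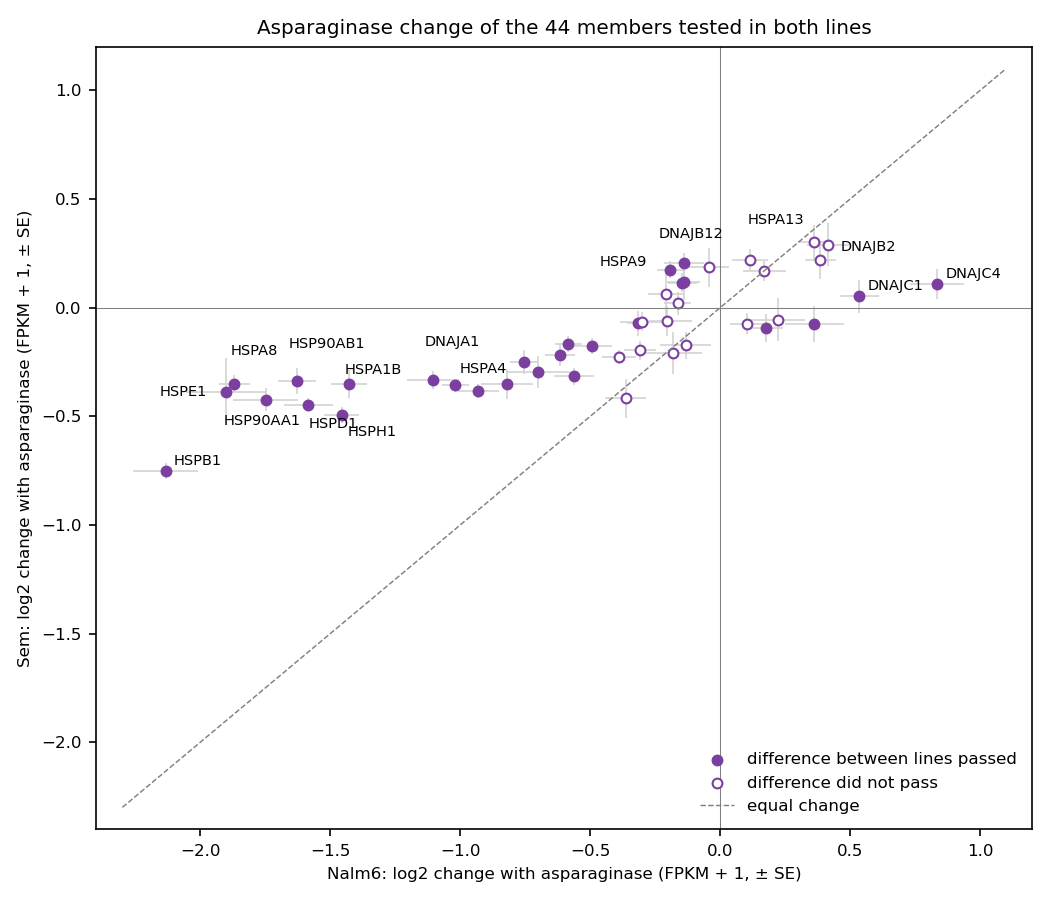
Log2 change of FPKM + 1 with asparaginase in Nalm6 (horizontal) against Sem (vertical), each ± SE, for the 44 members tested in both lines. Filled points differed between the lines by limma's adjusted p of 0.05, and the dashed line marks equal change: HSPA8, HSPB1 and the HSP90 genes lie at -1.63 to -2.13 in Nalm6 and at -0.34 to -0.75 in Sem.

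Ibrutinib alone showed the opposite balance between the lines. In Nalm6 5 of 47 members were called lower and 1 higher, near the 7.46% and 4.98% of all genes, with a member median of -0.03 against -0.01. The lower members were HSPB1, HSPA8, DNAJC11 (-0.23), the second HSPA14 gene (-0.19) and HSPA9 (-0.18). Of these, HSPB1 kept its call whichever library was left out, while that of HSPA9 was lost in each such fit. The DNAJC11 call was lost without any 1 of 5 libraries (ibrutinib 1, 2 or 3, untreated 1 or 3) and that of the second HSPA14 gene without any 1 of 4 (ibrutinib 1 or 2, untreated 1 or 3). The count of lower members was 1 without ibrutinib library 1 or 2 or untreated library 3, 2 without untreated library 1 and 3 without ibrutinib library 3. After rescaling to TPM only HSPB1 kept its call (adjusted p of 0.059 to 0.21 for the other 4). In Sem 27 of 48 members were lower and 7 higher, where 21.3% and 20.2% of all genes were, with a member median of -0.23 against 0.01. There the greatest falls were those of HSPE1 (-0.85, adjusted p = 0.0012), HSPA9 (-0.67), HSPD1 (-0.53), DNAJB12 (-0.47) and HSPH1 (-0.45). By role, 6 of 7 mitochondrial members, 5 of 6 HSP70, 3 of 3 HSP110, 2 of 2 HSP90 and 2 of 2 DNAJA members fell in Sem with ibrutinib.

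The 7 Sem members higher with ibrutinib were HSPB7 (0.54), DNAJB4 (0.34), DNAJC4 (0.30), DNAJC16 (0.24), DNAJC14 (0.17), DNAJC21 (0.14) and DNAJB14 (0.13). DNAJC16 lost its call without ibrutinib library 2 or 3 or untreated library 1 or 2, and DNAJC14 without ibrutinib library 3 or untreated library 2. Under quantile normalization the DNAJC16 change was 0.16 (adjusted p = 0.2). Without ibrutinib library 3 the count was 3, and without ibrutinib library 2 or untreated library 1 it was 4. DNAJB4, a class B J-domain protein, was the 1 member called higher with ibrutinib in both lines. It went from 4.05, 4.48 and 4.27 FPKM to 5.6, 5.96 and 6.43 in Nalm6 and from 4.6, 4.51 and 4.68 to 6.09, 6.04 and 6.08 in Sem. The groups did not overlap in either line. The Nalm6 rise of 0.41 (adjusted p = 0.022) lost its call without ibrutinib library 2 or 3 or untreated library 1 or 3 (adjusted p of 0.065 to 0.078) and under quantile normalization (adjusted p = 0.07), while the Sem rise had an adjusted p of 0.0011.

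Between the lines, 14 of 51 members had a more negative ibrutinib change in Sem and 1 a more positive one, where 6.09% and 7.55% of all genes did. The greatest differences were those of HSPE1 (-0.73, adjusted p = 0.043), HSPA1A (-0.70), HSPA1B (-0.54), HSPA9 (-0.49) and HSP90AA1 (-0.44), and the positive one that of HSPB7 (0.54, adjusted p = 0.72 under limma-voom). HSPA1A had 3 to 29 reads per library in Nalm6, too few to be tested within that line. The calls of HSPE1 and HSP90AA1 were lost without any 1 of 8 and of 10 libraries (adjusted p of up to 0.12 and 0.11). The count fell to 8 without Nalm6 ibrutinib library 2 or 3 or without Nalm6 untreated library 3, and to 9 without Nalm6 untreated library 1, Sem ibrutinib library 1 or 3, or Sem untreated library 3. All 5 members lower in Nalm6 were also lower in Sem, which is 20% of the 25 lower Sem members tested in both lines. The matching overlap over all genes was not counted.

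With both drugs together, compared with the same untreated libraries, 29 of 47 Nalm6 members were lower and 11 higher, where 31.3% and 32.4% of all genes were, and the member median was -0.35 against 0.02. The greatest falls were those of HSPE1 (-2.06), HSPD1 (-1.81), HSP90AB1 (-1.65), HSPB1 (-1.58) and HSP90AA1 (-1.48). The greatest rises were those of DNAJB2 (1.06), DNAJC28 (0.83), DNAJC4 (0.83), DNAJB4 (0.64) and DNAJC16 (0.53). Only its combination libraries took DNAJC28 to 1 FPKM in Nalm6, with at most 0.862 in the others. It was thus tested only because it was high there, and its rise is not read as a result. In Sem 28 of 48 were lower and 8 higher, where 26.3% and 26.6% of all genes were, with a median of -0.29 against 0.02. HSPE1 (-0.98), HSPH1 (-0.88), HSPD1 (-0.78), HSPA8 (-0.73) and HSP90AB1 (-0.73) fell most, and DNAJC4 (0.61), HSPB7 (0.59), DNAJB2 (0.46), DNAJC16 (0.35) and DNAJC1 (0.29) rose most, the DNAJC16 call being lost under quantile normalization (adjusted p = 0.08). Between the lines 15 of 51 members had a higher and 11 a lower change in Sem, where 22.2% and 18.6% of all genes did. HSPE1 (1.08), HSPB1 (1.04) and HSPD1 (1.03) led the first and HSPA1A (-0.79), DNAJC28 (-0.71) and DNAJB2 (-0.60) the second. HSPA1A in Nalm6 (3 to 29 reads per library) and DNAJC28 in Sem (at most 0.443 FPKM) were too low to test within their line.

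The effect of adding ibrutinib to asparaginase was read from the combination against asparaginase alone. In Nalm6 12 of 47 members were higher and 8 lower, where 9.79% and 12% of all genes were, with a member median of 0.10 against -0.00. In Sem 7 of 48 were higher and 20 lower, where 18.6% and 19.7% of all genes were, with a median of -0.13 against 0.01. The asparaginase libraries also enter the comparison with untreated cells, so the 2 changes of a member are not independent, and no overlap between them is counted. The difference between the lines in this comparison was not tested.

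HSPA8 held 263, 231 and 229.8 FPKM in the Nalm6 combination, above all 3 asparaginase libraries and below all untreated ones (0.42 against asparaginase, SE 0.06, adjusted p = 0.00073). HSPA1B held 6.38, 6.13 and 5.72 FPKM, a 2.02-fold higher mean than with asparaginase alone (0.82, adjusted p = 3e-05). HSPB1 held 69.8, 94.9 and 85.3 FPKM (0.56, adjusted p = 0.0092). All 3 groups lay between the asparaginase and the untreated libraries. In Sem, HSPA8 held 274, 284 and 281 FPKM and HSPA1B 9.58, 8.42 and 9.15, both below the asparaginase libraries. The HSPA8 fall of 0.38 there had an adjusted p of 2.5e-05, and the HSPA1B fall of 0.21 (adjusted p = 0.022) lost its call without asparaginase library 1 or 2 or combination library 2. HSPB1 in Sem stood at 151, 155 and 144 FPKM, above asparaginase alone (0.22, adjusted p = 0.0013, but 0.1 with both lines in 1 fit).

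HSPH1 in Nalm6 was higher in the combination by 0.46 (adjusted p = 0.00076), DNAJB1 by 0.44 (adjusted p = 0.0032), DNAJB6 by 0.47 and DNAJA1 by 0.41 (adjusted p = 0.014). The DNAJA1 call was lost without asparaginase library 2 (adjusted p = 0.059) or 3 (adjusted p = 0.056). The HSP90 genes did not follow: HSP90AA1 had a difference of 0.27 (adjusted p = 0.16) and HSP90AB1 one of -0.02 (adjusted p = 0.9). HSPD1 had a difference of -0.22 (adjusted p = 0.12), which passed without combination library 1, the library with the widest spread of all (-0.34, adjusted p = 0.011), and with both lines in 1 fit (adjusted p = 0.03). In Sem HSPH1, HSP90AA1, HSP90AB1, HSPD1 and HSPE1 fell further in the combination, by 0.38, 0.21, 0.40, 0.33 and 0.59, the HSP90AA1 call being lost with both lines in 1 fit (adjusted p = 0.12). The Sem rise of DNAJB1 in the combination, 0.10 (adjusted p = 0.041), was lost without any 1 of 5 libraries (asparaginase 1, 2 or 3, combination 1 or 3).

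**Figure D4:**
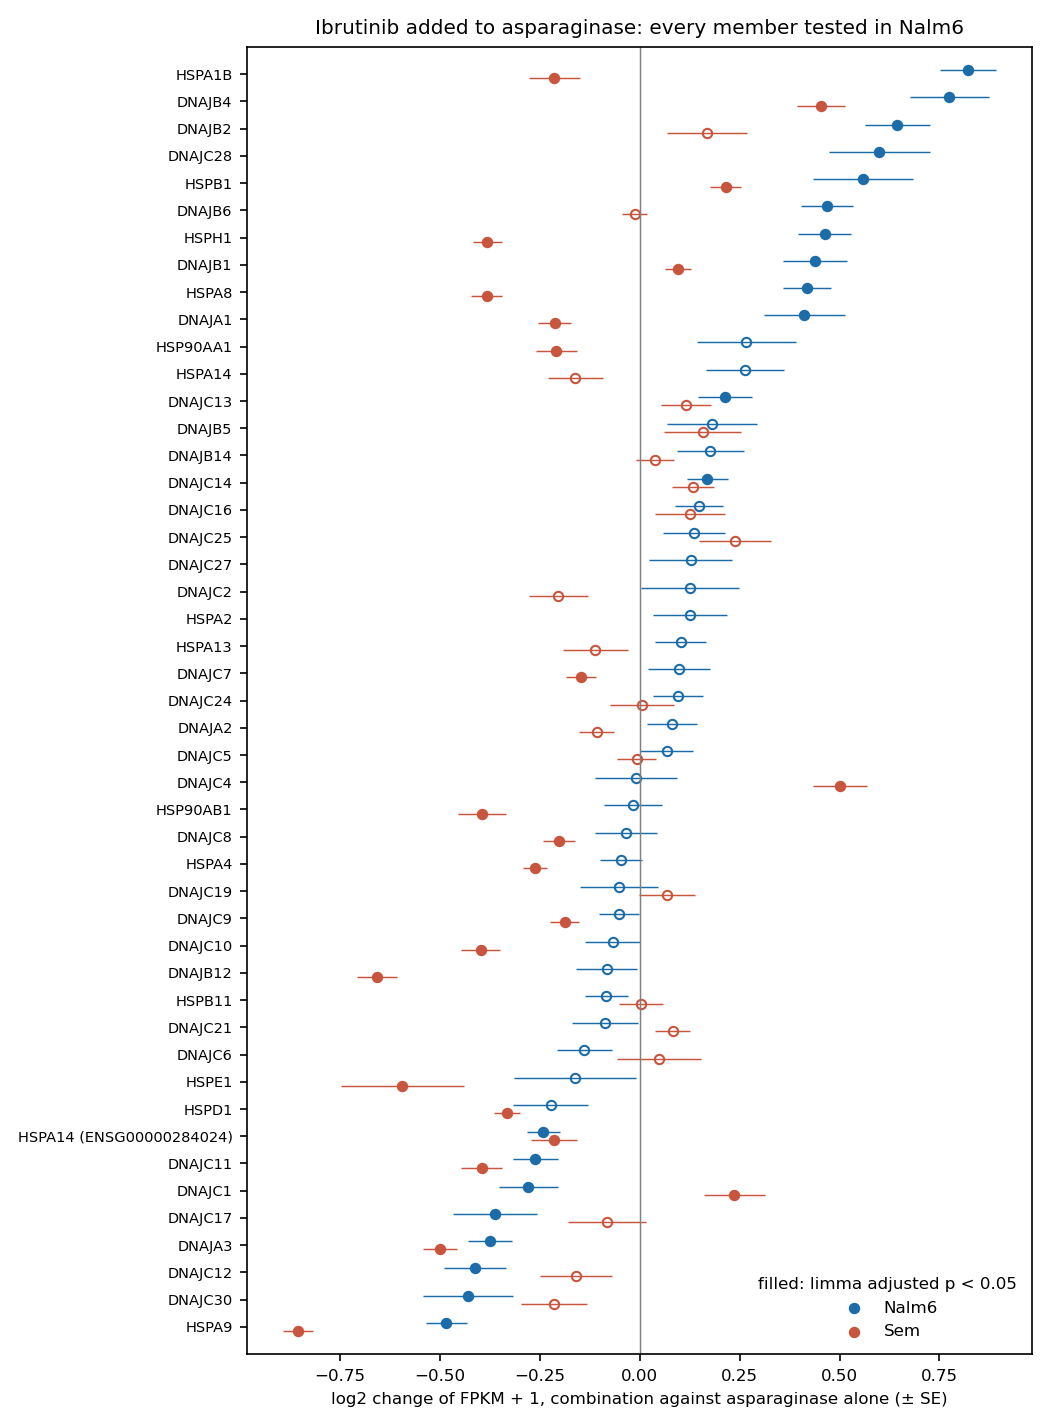
Log2 difference of FPKM + 1 between the combination and asparaginase alone (± SE) in Nalm6 and Sem, for the 47 members tested in Nalm6, ordered by the Nalm6 value (no Sem point where a member was not tested there). Filled points passed limma's adjusted p of 0.05. HSPA1B lies highest in Nalm6, at 0.82, and at -0.21 in Sem, and HSPA9 lies lowest in both lines, at -0.48 and -0.86.

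HSPA9 was lower in the combination than with asparaginase alone in both lines. In Nalm6 it held 62.2, 57.5 and 55.1 FPKM (-0.48, SE 0.05, adjusted p = 9.8e-05) and in Sem 37.4, 38 and 39.7 (-0.86, SE 0.04, adjusted p = 6.9e-08). The Sem libraries with ibrutinib alone lay at 37.5 to 39.9 FPKM, in the same range. DNAJA3 fell likewise, by 0.38 in Nalm6 and 0.50 in Sem, and DNAJC11 by 0.26 and 0.40. In Nalm6 DNAJC30 (-0.43), DNAJC12 (-0.41) and DNAJC17 (-0.36) were also among the lowest, the DNAJC30 call being lost without asparaginase library 2 or 3 or combination library 1 and that of DNAJC17 without any 1 of 5 libraries (asparaginase 1 or 2, combination 1, 2 or 3), and in Sem DNAJB12 (-0.66) and DNAJC10 (-0.40). On the other side, Nalm6 DNAJB2 rose from the asparaginase level to 6.92, 7.19 and 7.92 FPKM (0.64, adjusted p = 0.00034), DNAJB4 to 8.7, 6.27 and 6.85 (0.78, adjusted p = 0.00034) and DNAJC28, a putative mitochondrial J-domain protein, to 1.48, 1.9 and 1.29 (0.60). DNAJC28 passed the filter in Nalm6 only through these combination libraries, so its rise is not read as a result. In Sem DNAJC4 (0.50), DNAJB4 (0.45), DNAJC18 (0.24) and DNAJC1 (0.24) followed HSPB7 among the higher members. The DNAJC18 and DNAJC1 calls were both lost without asparaginase library 2 or 3 or combination library 1, and that of DNAJC1 also without combination library 3. The count of 7 higher Sem members was 4 without asparaginase library 2 or 3.

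Before treatment the lines already differed. Of 51 members 14 were higher and 22 lower in untreated Sem than in untreated Nalm6, where 34% and 31.8% of all genes were, with a member median of -0.09 against -0.00. The greatest differences belonged to 3 members that Nalm6 hardly expressed: HSPB7, HSPA4L and HSPA1A. These, and DNAJC18, reached 1 FPKM in Sem only, and DNAJC28 did so in Nalm6 only. All of them entered the fit through the line where they are high, so the direction of their line difference follows from the filter. HSPB7, a small heat shock protein best known from heart and skeletal muscle, had 1 read in all 12 Nalm6 libraries. In Sem it held 20.3, 22 and 20.9 FPKM untreated, 30.2, 31.5 and 31.9 with ibrutinib, 14.8, 14.1 and 14.3 with asparaginase and 32, 32 and 32.8 with both. The asparaginase group lay below the untreated one and both ibrutinib-treated groups above it. HSPB7 rose by 0.54 with ibrutinib (SE 0.04, adjusted p = 1.8e-06), fell by 0.52 with asparaginase (adjusted p = 4.1e-06), and was higher by 1.11 in the combination than with asparaginase alone (adjusted p = 1.2e-08). Against a floor of 3 reads per library, untreated Sem was at least 434-fold higher than untreated Nalm6, and the combination groups differed at least 750-fold.

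HSPA4L, a relative of HSPA4 in the HSP110 family, had 13 reads over the 12 Nalm6 libraries and held 6, 6.47 and 6.01 FPKM in untreated Sem. With ibrutinib the Sem libraries held 4.83, 5.21 and 4.96, with asparaginase 4.77, 4.47 and 4.7, and with both 3.73, 4.31 and 3.78. Each treated Sem group lay below the untreated one, with falls of 0.25, 0.34 and 0.54. HSPA1A held 14, 11.8 and 13.3 FPKM in untreated Sem and 0.287, 0.363 and 0.186 in untreated Nalm6, a 46.7-fold difference of the means. In Nalm6 it was too low to be tested within the line, with 3 to 29 reads per library. The Nalm6 libraries with ibrutinib held 0.63, 0.553 and 0.664 FPKM and those with both drugs 0.683, 0.475 and 0.452, all above the untreated libraries and above those with asparaginase alone at 0.168, 0.0716 and 0.105. In Sem HSPA1A fell to 10.7, 10.2 and 8.81 FPKM with ibrutinib (-0.36, adjusted p = 0.0046). The neighbouring HSPA1B differed far less between the untreated lines (0.47, adjusted p = 5.3e-06), with the caution on shared reads given above. The printed HSPA1A and HSPA1B stretches share the same capitals.

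**Figure D5:**
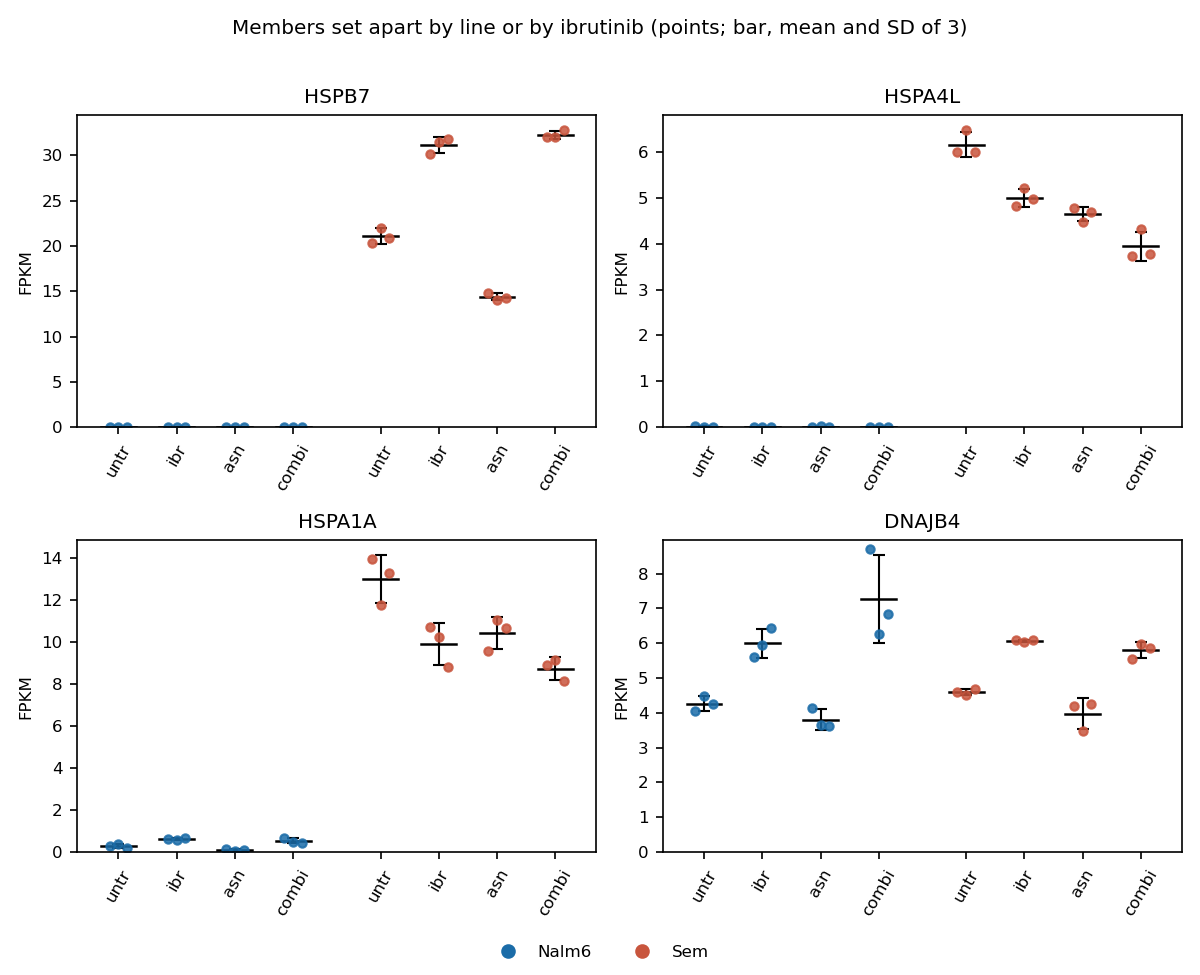
FPKM of HSPB7, HSPA4L, HSPA1A and DNAJB4 in every library (points; bar, mean and SD of 3), with untreated (untr), ibrutinib (ibr), asparaginase (asn) and combination (combi) groups of Nalm6 and then Sem along the horizontal axis. HSPB7, HSPA4L and HSPA1A stay under 1 FPKM in every Nalm6 library, and HSPB7 in Sem spans 14.1 to 32.8 FPKM.

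Other members higher in untreated Sem were DNAJC1 (1.69, a 4.39-fold difference of the means), DNAJC4 (1.49), DNAJB6 (1.32) and DNAJC30 (1.08). Lower in untreated Sem were DNAJC12 (-1.15), DNAJC6 (-0.89), HSP90AB1 (-0.80), DNAJC16 (-0.80) and HSPA9 (-0.59). DNAJB6, which handles polyglutamine clients, held 6.11, 6.94 and 6.54 FPKM in Nalm6 and 17.6, 17.7 and 18.1 in Sem. DNAJC6, a J-domain protein of clathrin uncoating, was called in no Sem treatment comparison and fell by 0.21 with asparaginase in Nalm6.

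The members were also set out by the upstream matches described above, of which only some are printed. With asparaginase, all 5 tested members with a 3-unit match (HSPA8, HSP90AA1, HSP90AB1, HSPD1 and DNAJB6) were lower in both lines, with a median of -1.63 in Nalm6 and -0.35 in Sem. Of all genes, 28% were lower and 28.2% higher in Nalm6, and 15% and 11.3% in Sem. Of the 5 Nalm6 members with a 2-unit match only (HSPA1B, HSPB1, DNAJA1, DNAJB1 and DNAJB4), 4 were lower, with a median of -1.10. Of the 7 such Sem members, 6 were lower, with a median of -0.34, close to that of the 3-unit class. Of the 32 Nalm6 members with a window and no match, 16 were lower and 7 higher, with a median of -0.17, and of 31 in Sem 10 were lower and 5 higher, with a median of -0.07. HSPE1 and HSPH1, with falls of 1.90 and 1.46, had a window and no match. The HSPD1 stretch printed above lies in an exon of HSPE1, though not within the bases searched for HSPE1. When the combination was compared with asparaginase alone in Nalm6, all 5 members of the 2-unit class were higher (median 0.56), as were 2 of 5 in the 3-unit class (HSPA8 and DNAJB6, class median 0.27) and 5 of 32 without a match (median 0.03). There 9.79% of all genes were higher. In Sem, 3 of 7 members of the 2-unit class were higher and 4 lower (median -0.19), 4 of 5 in the 3-unit class were lower and none higher (median -0.33), and of 31 without a match 3 were higher and 11 lower (median -0.11). The shares of all genes in that Sem comparison were 18.6% higher and 19.7% lower. No test of these classes was made, and the changes of genes outside the families with a match were not set out. No match says only that these letters are absent from the 250 bases searched.

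Regulators and partners outside the families were read from lists, beside the 28% of all genes called lower and 28.2% called higher with asparaginase in Nalm6, and the 15% and 11.3% in Sem. The heat shock factor list held 5 genes, HSBP1 among them, and 4 were tested. HSF1 itself had asparaginase changes of -0.19 in Nalm6 (adjusted p = 0.19) and -0.10 in Sem (adjusted p = 0.065). HSF2 fell by 0.24 in Nalm6, with a change of -0.03 in Sem, and HSF4 had changes of 0.20 and 0.16 that did not pass. HSBP1, a small protein that binds HSF1, fell by 0.62 in Nalm6 and 0.26 in Sem. Of 15 HSP90 co-chaperones, 11 fell with asparaginase in each line (73.3%) and 1 rose in Nalm6 (median -0.64 in Nalm6 and -0.20 in Sem), led by STIP1 (-1.34 and -0.37), the bridge from HSP70 to HSP90, and AHSA1 (-1.33 in Nalm6), an activator of the HSP90 ATPase; PPID, a cyclophilin partner, fell by 0.34 in Sem and TSC1 rose by 0.46 in Nalm6. Of 12 HSP70 co-chaperones, 9 fell (75%) and 1 rose in Nalm6 (median -0.35) and 3 fell in Sem (25%, median -0.09); BAG2 (-0.84), SGTA (-0.62) and the ER exchange factor SIL1 (0.32) stood out in Nalm6, and BAG1 (-0.51) and SGTA (-0.21) in Sem.

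Of 15 genes of the cytosolic chaperonin TRiC and prefoldin, 14 fell with asparaginase in Nalm6 (93.3%, median -0.92) and 12 in Sem (80%, median -0.26), with none higher in either. CCT4 fell by 1.43 and 0.42, TCP1 by 1.42 in Nalm6 and PFDN4 by 0.52 in Sem. Among mitochondrial partners and proteases, 7 of 14 fell (50%) and 4 rose in Nalm6, where the 28.6% that rose was near the share of all genes, and 5 of 15 fell (33.3%) and 4 rose (26.7%) in Sem. The mitochondrial HSP90 gene TRAP1 fell by 1.17 and 0.40, GRPEL1, the exchange factor of HSPA9, by 0.99 in Nalm6, and CLPP by 0.24 in Sem. The protease gene LONP1 rose by 0.55 and 0.50, and ATF5, a transcription factor of the mitochondrial unfolded protein response, by 0.88 and 3.08, from 11.9 to 108 FPKM in Sem. With ibrutinib in Sem, 13 of 15 TRiC and prefoldin genes, 9 of 15 HSP90 co-chaperones and 7 of 12 HSP70 co-chaperones fell (86.7%, 60% and 58.3%), where 21.3% of all genes did. In Nalm6 8, 3 and 2 of these fell (53.3%, 20% and 16.7%), where 7.46% of all genes did.

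Some members did not pass in any treatment comparison of a line. In Nalm6 these were DNAJB5, DNAJC10 and DNAJC24, and in Sem DNAJB5, DNAJC5, DNAJC6, DNAJC12, DNAJC13, DNAJC17, DNAJC19 and DNAJC24. The 20 members tested in no fit were at 0 or near it. HSPB3, DNAJB8, DNAJC25-GNG10 and HSPB2-C11orf52 had no read in any library; a count of 0 allows up to 3 reads per library, for counting error only. The others were HSPA1L, HSPA6, HSPA12A, HSPA12B, HSPB2, HSPB6, HSPB8, HSPB9, DNAJA4, DNAJB7, DNAJB13, DNAJC5B, DNAJC5G, DNAJC15, DNAJC22 and HSPE1-MOB4, with the highest single values those of HSPA1L (1.08 FPKM in Sem) and HSPA6 (0.606 in Nalm6). Within a line, HSPA1A, HSPA4L, HSPB7 and DNAJC18 (at most 0.995 FPKM) were not tested in Nalm6, and HSPA2 (1.09), DNAJC27 (1.2) and DNAJC28 (0.443) were not tested in Sem. Of the ER chaperones left out, HSPA5 fell with asparaginase by 1.90 in Nalm6 and DNAJB11 by 0.53, while DNAJB9 rose by 0.31 in Nalm6 and 0.47 in Sem. DNAJC3 fell by 0.14 in Nalm6 and had a change of 0.15 in Sem (adjusted p = 0.11).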

How the data were processed

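The authors deposited FPKM per gene for 58735 genes in 24 libraries, made with fastp, STAR and featureCounts on human build hg38, per the submitters' processing notes (versions not given in the sources used here). Library strandedness and the FPKM scaling are not stated in the sources used here. Every deposited FPKM value of 1 or more (299165 values, 21.2%) had lost its decimal point. Values below 1, multiplied by gene length, were whole multiples of 1 read in each library (largest deviation 9.1e-13 reads), so the place of the point was restored by requiring whole reads and scoring the possible powers of 10 over the 12 libraries of a line. None of the 1125 restored member values had a posterior under 0.99, against 493 of all restored values, and 99.966% of 53415 simulated damaged values came back correct. The precision of low values is limited by 1 read in a gene of 1 kb, which stood for 0.0601 FPKM in the median library. Every value column was matched to a sample.

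A gene entered a fit when 3 or more of its libraries reached 1 FPKM. Tests used limma 3.58.1 in R 4.3.3 (limma-trend on log2(FPKM + 1), pseudocount 1, two-sided, Benjamini-Hochberg adjusted over all genes tested). Fits used the 12 libraries of a line (8 residual degrees of freedom) or all 24 (16) for differences between lines. The script was tested on simulated data. Tables and figures were made with Python 3.11.15, numpy 2.4.6, pandas 2.3.3 and matplotlib 3.10.9. Alternatives were a pseudocount of 0.1, no filter, rescaling to TPM, quantile normalization, limma-voom on the recovered reads, no genes of uncertain decimal place, a replicate block, both lines in 1 fit and each library left out. Libraries that share a replicate number were treated as unpaired.

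The members, partner lists and tests were chosen with earlier results of these data known. Named were a set of core members, up to 5 called members with the largest change in each direction of each comparison, members called in no comparison of a line, untested members, all tested genes of the heat shock factor list, up to 2 called genes in each direction of each partner list with asparaginase, and the 4 ER chaperones left out. All 71 members matched GENCODE 29 on GRCh38. Upstream sequences are from RefSeq.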

Additional observations from a re-analysis of the deposited data

Results flagged for a closer look

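For the members named, the Sem change minus the Nalm6 change passed limma's adjusted p of 0.05 in 57 cases, listed here as log2 differences. With ibrutinib, 12 were negative: HSPE1 -0.73, HSPA1A -0.70, HSPA1B -0.54, HSPA9 -0.49, HSP90AA1 -0.44, HSPH1 -0.42, HSPA14 -0.40, HSPD1 -0.34, HSP90AB1 -0.29, HSPA4 -0.26, DNAJC9 -0.26 (-0.255 before rounding) and HSPA4L -0.24. The remaining one was HSPB7 at 0.54. HSPA1A in Nalm6, at 3 to 29 reads per library, was too low to be tested within that line. The HSPA4L and HSPB7 differences reflect Sem alone, since Nalm6 had 13 and 1 reads of these genes over its 12 libraries, and neither passed under limma-voom (1.435 and 0.57, adjusted p of 0.35 and 0.72). The calls of HSP90AB1, HSPA14 and HSP90AA1 were each lost without any 1 of 10 libraries, those of HSPE1 and HSPD1 without any 1 of 8 and that of HSPA4L without any 1 of 6 (adjusted p of up to 0.12).

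With asparaginase, 20 differences were positive. They were 1.52 for HSPA8, 1.51 for HSPE1, 1.38 for HSPB1, 1.33 for HSP90AA1, 1.29 for HSP90AB1, 1.14 for HSPD1, 1.08 for HSPA1B, 0.96 for HSPH1, 0.77 for DNAJA1, 0.66 for HSPA4 and 0.55 for DNAJB1. Smaller ones were 0.50 for HSPB11, 0.47 for HSPA14, 0.41 for DNAJC9, 0.40 for DNAJC2, 0.37 for HSPA9, 0.32 for DNAJC7, 0.26 for DNAJA3, 0.25 for DNAJC8 and 0.24 for the second HSPA14 gene. The 5 negative ones were DNAJC4 -0.73, HSPB7 -0.53, DNAJC1 -0.48, DNAJC30 -0.44 and HSPA4L -0.34. The DNAJC2 call was lost without any 1 of 10 libraries and that of DNAJC8 without any 1 of 9, and both were lost after rescaling to TPM (adjusted p of 0.097 and 0.11). That of DNAJC30 was lost without any 1 of 5 libraries, that of HSPA9 under quantile normalization (0.16, adjusted p = 0.062), and those of HSPB7, HSPA4L and the second HSPA14 gene under limma-voom (adjusted p of 0.33, 0.61 and 0.1).

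With the combination, the positive differences were HSPE1 1.08, HSPB1 1.04, HSPD1 1.03, HSP90AB1 0.91, HSP90AA1 0.85, HSPA8 0.72, HSPB11 0.59, HSPA4 0.45, DNAJC9 0.28 and the second HSPA14 gene 0.27. The negative ones were HSPA1A -0.79, DNAJC28 -0.71, DNAJB2 -0.60, HSPA4L -0.53, DNAJC13 -0.37, DNAJB4 -0.36, DNAJB6 -0.32, HSPA13 -0.27 and DNAJC5 -0.25. HSPA1A in Nalm6 and DNAJC28 in Sem (at most 0.443 FPKM) were too low to be tested within the line. In Nalm6, DNAJC28 passed the filter only through its combination libraries. The HSPA13 call was lost without any 1 of 7 libraries and that of DNAJC5 without Nalm6 combination library 3. Those of HSPA4L and the second HSPA14 gene were lost under limma-voom (adjusted p of 0.93 and 0.056).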

How the results depend on the processing

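Of 392 member values named, 274 were called; 60 lost the call in at least 1 alternative, 39 of them by leaving out 1 library, and 29 others gained one. The direction reversed for HSPA9 with asparaginase in Nalm6 under quantile normalization (0.135) and for the HSPA4L ibrutinib difference between lines under limma-voom (1.435), and DNAJA3 with asparaginase in Nalm6 had no direction left after rescaling to TPM (0.0); the cause was not tested. Nalm6 members called higher with ibrutinib numbered 3 after rescaling, 3 with both lines in 1 fit, 2 under limma-voom, 0 under quantile normalization and 2 with the replicate block, against 1 as reported. Those called lower numbered 1, 8, 2 and 2 in the first 4 of these settings and 2 without a filter, against 5. Sem members higher with ibrutinib numbered 4 without a filter, against 7, and those higher with asparaginase 10 after rescaling and 8 under limma-voom, against 5. Over all 13417 Sem genes, those higher with asparaginase numbered 2695 after rescaling and 2395 under limma-voom, against 1522. The ibrutinib difference between lines gave 0 members higher under limma-voom, against 1, and 8 lower without a filter, against 14. Leaving out 1 library gave 0 to 1 higher and 1 to 5 lower for ibrutinib in Nalm6, 3 to 6 higher for ibrutinib in Sem, 3 to 6 higher for asparaginase in Sem, 4 to 7 higher for the combination against asparaginase in Sem, and 1 to 2 higher and 8 to 14 lower for the ibrutinib difference between lines. All other member counts stayed within 1.5 times the reported ones under the settings run, and the 28 Nalm6 members lower with asparaginase numbered 23 to 29. With the replicate block, 383 of the 392 values kept their side of the threshold, 3 gained a call and 6 lost it. Deviations of same-numbered libraries correlated at -0.187 to 0.373 in Nalm6 (median 0.0161) and -0.022 to 0.0995 in Sem (median 0.0371). Those of other-numbered libraries correlated at -0.27 to 0.294 in Nalm6 (median -0.0042) and -0.109 to 0.0758 in Sem (median -0.021). Rescaling to TPM moved the median over all genes from 0.02 to 0.17 with asparaginase and from 0.02 to 0.19 with the combination in Nalm6, and from 0.02 to 0.11 with the combination in Sem. Depth limits members near 1 FPKM and HSPA1A in Nalm6.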
